A study of Bos taurus with 29 samples.

Results

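The genes described here run and restrain the cell division cycle, and they were read in bovine corpus luteum, the ovarian gland that makes progesterone. The set lists 37 genes by name: 11 of DNA replication, 13 of mitosis, 10 cyclins, kinases and E2F or RB proteins that act around the G1 to S transition, and 3 cyclin-dependent kinase inhibitors. Of the 19112 genes in the corpus luteum count table, 36 were members, and all 36 passed the filter on low counts with 18939 genes in all. CCND1 was not analysed here.

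The series concerns signalling between embryo, endometrium and corpus luteum in cattle, and its endometrial explants were cultured alone or with 1 embryo of day 7. The corpus luteum libraries formed 4 groups of 3. The groups CL-CM-EE-IVF (label CM_EE_IVF), CL-CM-EE-AI (label CM_EE_AI) and CL-CM-EE (label CM_EE) are read here as corpus luteum given medium conditioned by explants with an in vitro produced embryo, with an in vivo embryo and without an embryo, and CL-NC carries the label NC, taken as the control. The labels spell out neither CM nor NC, and give polyA RNA, a slaughterhouse source and the cell type Cls for all 4 groups, with no animal, age or culture time. The sample titles of CL-NC hold the word DMEN, and those of the other groups End_vitro (CL-CM-EE-IVF), End_vivo (CL-CM-EE-AI) or End (CL-CM-EE). Each group held 1 library numbered R5, 1 numbered R4 and 1 numbered R2. Nothing in the labels says what R marks or that the replicates are separate animals, and each p-value given here therefore reflects no more than the scatter among these libraries.

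A dividing cell passes from G1 into S phase when D-type cyclins with CDK4 or CDK6, and then E-type cyclins with CDK2, release E2F factors from RB1. The MCM helicase and PCNA then copy the DNA, and CDK1 with A- and B-type cyclins drives mitosis, while p21 (CDKN1A), p27 (CDKN1B) and p57 (CDKN1C) hold the kinases back. The corpus luteum grows quickly after ovulation, when endothelial cells make up much of the dividing population, and its steroid-producing luteal cells have largely left the cycle. In RNA from a mixed tissue, fewer cells of a type and less RNA per cell cannot be told apart.

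The 12 libraries held between 16536797 and 25747637 counts, of which mitochondrial genes took 44.4 to 64.0%. This share was 54.8 to 64.0% in R5, 44.4 to 48.9% in R4 and 49.5 to 55.9% in R2. Ribosomal RNA genes, which can overlap the mitochondrial ones, took 13.8 to 20.9%. All 5 luteal markers were present in every library, HSD3B1 at 423 to 2470 CPM. Of the epithelial markers, EPCAM had 0 to 13 counts per library, KRT18 6 to 66, CDH1 14 to 446 and KRT8 85 to 1455. CPM here are counts scaled to a common library size by the TMM method, so the levels of 1 gene can be compared between libraries but not the levels of different genes, which differ in length. Several features of the libraries moved with the R numbers. The summed level of 6 endothelial markers was 732 to 1035 CPM in R5, 706 to 1041 CPM in R4 and 1165 to 1429 CPM in R2, and that of the red cell genes HBB and HBA was 1.32 to 2.93 CPM in R5, 1.74 to 3.62 CPM in R4 and 16.8 to 30.6 CPM in R2. Summed luteal markers reached 1263 to 1946 CPM in R5, 1478 to 5477 CPM in R4 and 1233 to 2174 CPM in R2, and summed epithelial markers 7.06 to 9.41, 19.6 to 111 CPM and 14.99 to 25.9 CPM. The labels give each R2 library 1 title and each R5 and R4 library 2, and they name no sequencing run. The CL-NC library of R4 stood apart in 1 mitosis gene outside the set, NCAPH, which is described further on.

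None of the 36 cell cycle genes passed the test between the 4 groups, and 12 of the 36 (33.3%) passed it between the R numbers, where 26.7% of all genes did. Those 12 included the proliferation marker MKI67, the mitotic genes TOP2A, CDK1 and BUB1, the cyclins CCND2, CCND3 and CCNE1, the kinase CDK6, the helicase subunit MCM6 and all 3 kinase inhibitors. The R numbers accounted for a median of 38.1% of the spread of log2 CPM of a member, against 40.1% over all genes tested, and the groups for 15.5%, against 13.6% over all genes. For the 3 inhibitors these medians were 78.8% for the R numbers and 2.50% for the groups. At the extremes, the R numbers held 90.4% of the spread of CCND3 and 87.0% of that of MKI67, and 0.931% of that of CCNE2, a gene whose spread lay to 56.8% between groups.

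**Figure D1:**
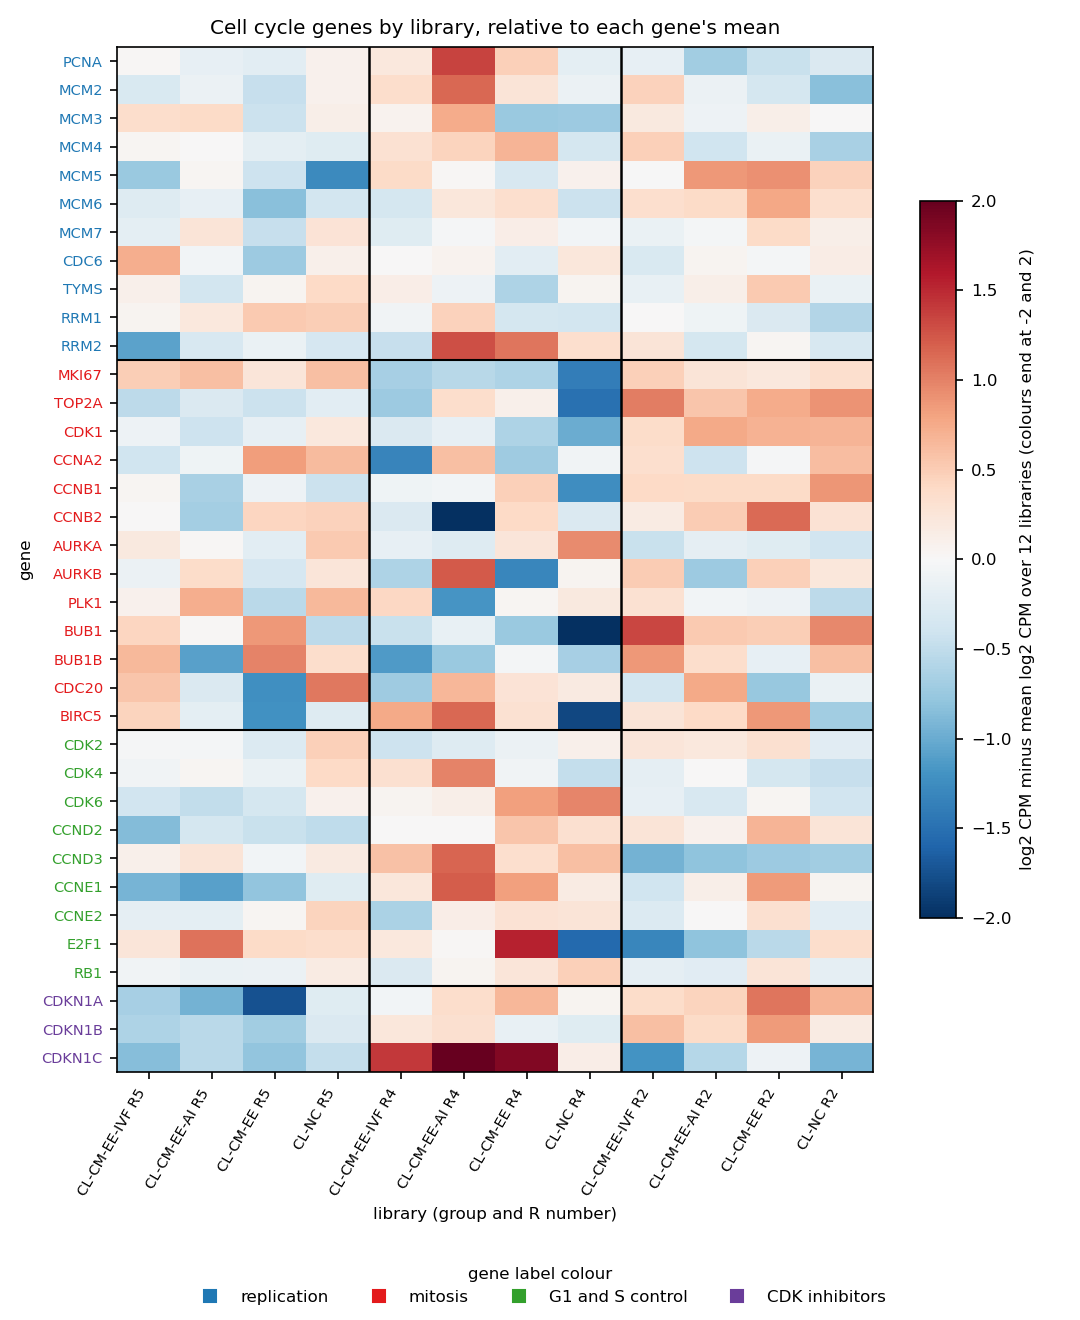
Level of the 36 cell cycle genes in each of the 12 corpus luteum libraries, as log2 CPM minus the mean log2 CPM of that gene. Rows are ordered by role (label colours) and columns by R number and group. CDKN1C is high in the R4 libraries given conditioned medium, the 4 R4 libraries are low in MKI67, and the 4 R5 libraries are low in CDKN1A and CDKN1B.

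In each of the 6 comparisons between groups, 0 of the 36 members passed an adjusted p of 0.05 in edgeR's quasi-likelihood test, and the same was true of 0 of 18939 genes (0% in each). This fit left the R number out. No member reached an unadjusted p of 0.05 in any comparison. Of all genes, 281 did for CL-CM-EE-IVF against CL-NC (1.48%), 213 for CL-CM-EE-AI against CL-NC (1.12%) and 142 for CL-CM-EE against CL-NC (0.75%). Between the conditioned media, 127 genes did for CL-CM-EE-IVF against CL-CM-EE-AI (0.671%), 285 for CL-CM-EE-IVF against CL-CM-EE (1.5%) and 242 for CL-CM-EE-AI against CL-CM-EE (1.28%). DESeq2 also called 0 members and 0 genes in each comparison, with 1 member at an unadjusted p under 0.05 in CL-CM-EE-AI against CL-CM-EE and 0 in the others. A single test for any difference among the 4 groups called 0 members and 0 genes in edgeR, where 172 genes (0.908%) and 0 members had an unadjusted p under 0.05. DESeq2's version of that test called 0 members and 1 gene, MYO15B. The standard error of a member's log2 fold change had a median of 0.48 in each comparison, and the 95% intervals had a median width of 2.07 to 2.08 on the log2 scale.

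The median log2 fold change of the members lay close to that of all genes in every comparison. It was -0.03 for CL-CM-EE-IVF against CL-NC (all genes -0.04), 0.15 for CL-CM-EE-AI against CL-NC (all genes 0.03) and 0.09 for CL-CM-EE against CL-NC (all genes -0.03). Between the conditioned media it was -0.13 for CL-CM-EE-IVF against CL-CM-EE-AI (all genes -0.07), -0.05 for CL-CM-EE-IVF against CL-CM-EE (all genes -0.02) and -0.01 for CL-CM-EE-AI against CL-CM-EE (all genes 0.06). The 3 comparisons with CL-NC share its libraries, and those between the media share theirs.

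**Figure D2:**
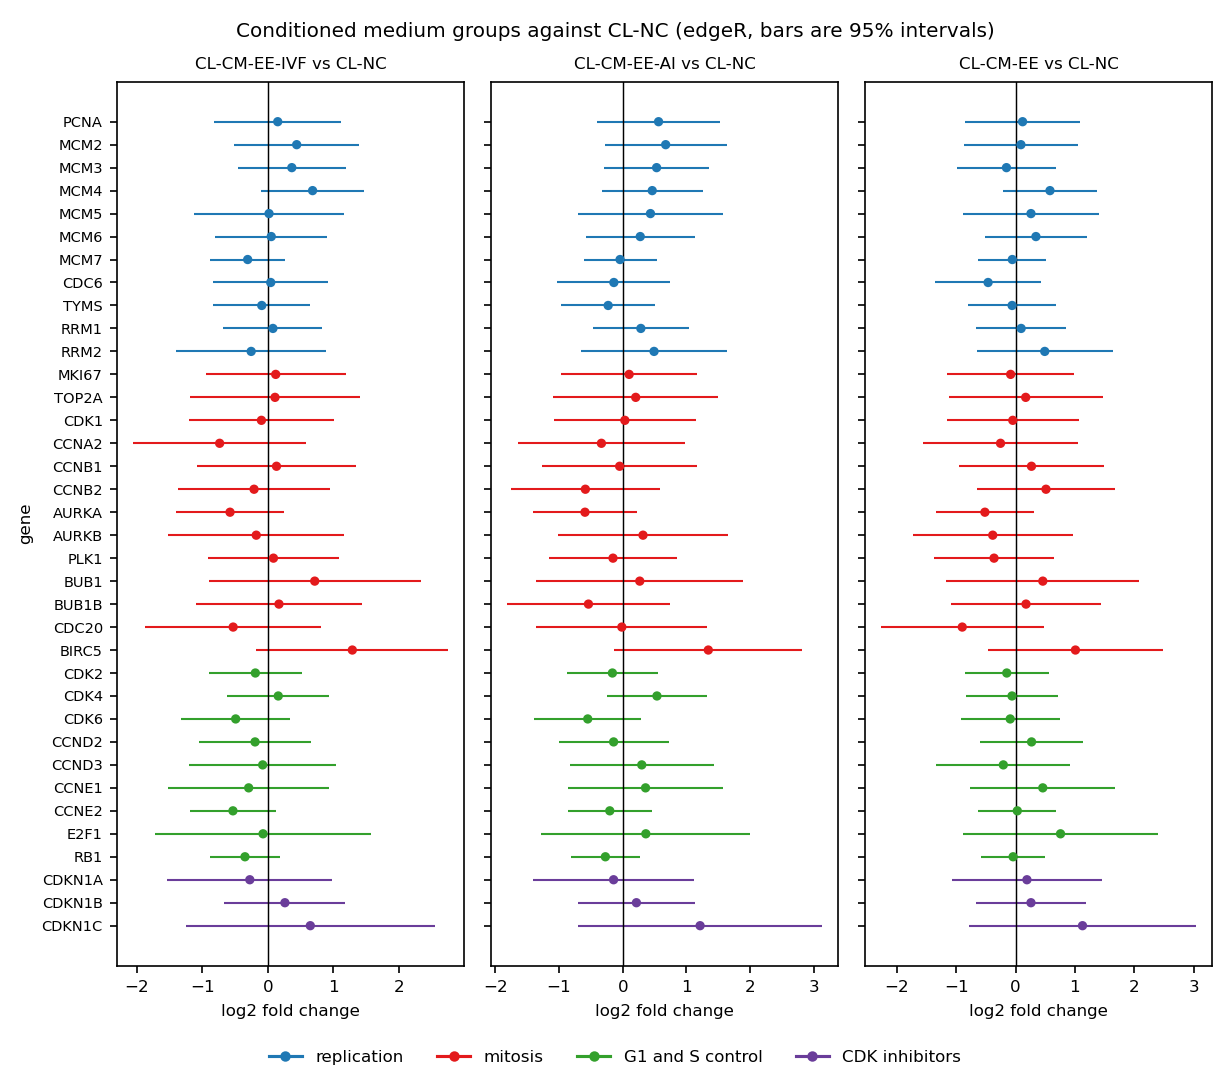
Log2 fold change of each of the 36 cell cycle genes in CL-CM-EE-IVF (left), CL-CM-EE-AI (middle) and CL-CM-EE (right) against CL-NC, with 95% intervals from edgeR (3 libraries a group). Every interval, from the fit without the R number, includes 0. The points farthest to the right belong to BIRC5 and, in the middle and right panels, CDKN1C.

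Few members had groups whose libraries did not overlap, and the share of all genes that separated the same way stands beside each count. CL-CM-EE-IVF lay above CL-NC in 2 members, MCM4 and BIRC5 (2.41% of all genes), and below it in 1, MCM7 (3.32%). CL-CM-EE-AI lay above CL-NC in 1 member, BIRC5 (1.99%), and below it in 1, CDC6 (1.95%). CL-CM-EE lay above CL-NC in 1 member, MCM4 (1.09%), and below it in 1, CDC6 (1.6%). CDC6 loads the replicative helicase, of which MCM4 and MCM7 are subunits. Between the media, CL-CM-EE-IVF lay above CL-CM-EE-AI in 0 members (0.755%) and below it in 1, MCM7 (1.56%). CL-CM-EE-IVF lay above CL-CM-EE in 1 member, PLK1 (3.17%), and below it in 2, CCNB2 and CCNE2 (2.43%). CL-CM-EE-AI lay above CL-CM-EE in 1 member, CDK4 (1.94%), and below it in 0 (1.4%).

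Between R numbers, an edgeR F test with the group in the model called 12 of 36 members (33.3%), where 26.7% of all genes passed. Of the roles, 1 of 11 replication genes, 4 of 13 mitosis genes, 4 of 9 G1 and S genes and 3 of 3 inhibitors passed. R5 against R4 called 1 member higher and 6 lower (5.58% and 8.67% of all genes), R5 against R2 1 higher and 6 lower (11.5% and 9.26%), and R4 against R2 3 higher and 4 lower (8.72% and 4.93%). Without the R2 libraries, 7 members differed between R5 and R4. Single libraries weighed on these counts. R5 against R4 called 3 members without CL-CM-EE-AI R5, CL-CM-EE R4 or CL-CM-EE-AI R4, and R5 against R2 called 4 without CL-CM-EE-IVF R5 or CL-CM-EE-IVF R2. R4 against R2 called 3 without CL-CM-EE R4 or CL-NC R2, and 4 without CL-CM-EE-IVF R5, CL-CM-EE-IVF R4 or CL-NC R4. MKI67, CCND3, CDKN1A, CDKN1B and CDKN1C passed the F test whichever of the 12 libraries was left out. Of the 21 single contrasts called for a member, 8 were called in all 12 fits that left out 1 library and 13 were lost in at least 1. The 8 were R5 against R4 for MKI67 and CDKN1C, R5 against R2 for CCND3, CDKN1A and CDKN1B, and R4 against R2 for MKI67, CCND3 and CDKN1C. The part that endothelial, luteal, red cell and mitochondrial RNA had in these differences was not tested.

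**Figure D3:**
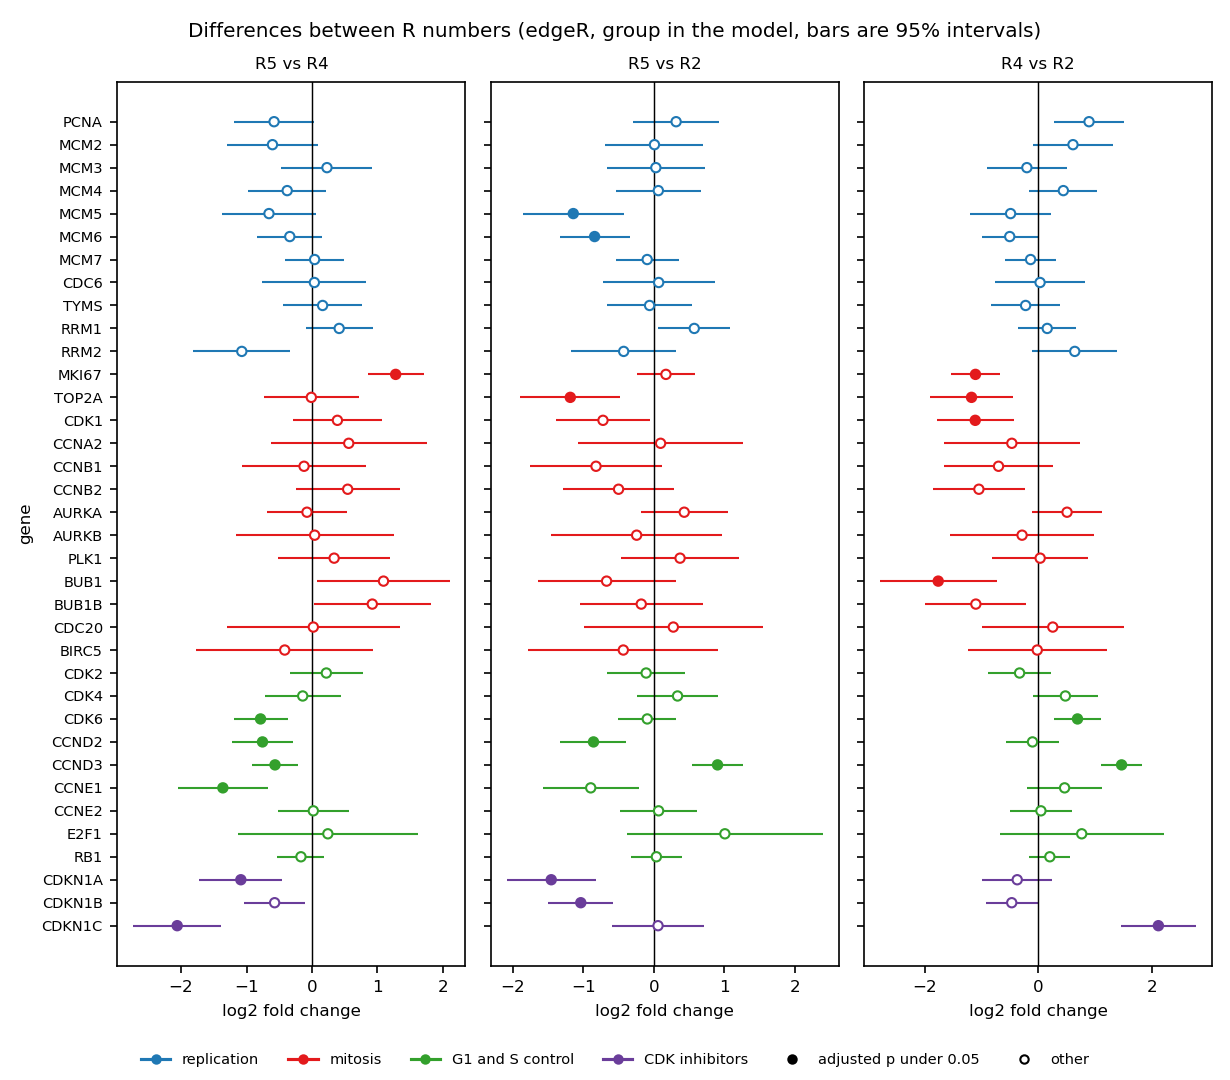
Log2 fold change of each of the 36 cell cycle genes between R numbers, with 95% intervals from edgeR with the group in the model (4 libraries an R number). Filled points passed an adjusted p of 0.05. The filled points to the left of 0 in both R5 panels include CCND2 and CDKN1A, and CDKN1C stands near 2 on the log2 scale in R4 against R2.

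Of the replication genes, 0 passed between groups and 1 of 11 in the F test between R numbers. PCNA, the sliding clamp that holds DNA polymerase on its template, was at 16.4, 18.7 and 14.5 CPM in CL-CM-EE-IVF, at 14.5, 41.4 and 10.004 CPM in CL-CM-EE-AI, at 14.1, 22.4 and 11.95 CPM in CL-CM-EE and at 17.2, 14.1 and 13.3 CPM in CL-NC, in R5, R4 and R2 of each group. The CL-CM-EE-AI library of R4 was the highest of the 12 and CL-CM-EE-AI R2 the lowest, so that group had the widest spread, at 21.98 ± 17.002 CPM, against 14.9 ± 2.06 CPM for CL-NC (SD, n = 3 each). PCNA had a log2 fold change of 0.56 for CL-CM-EE-AI over CL-NC, with an interval of -0.41 to 1.53.

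MCM2 and MCM4 are subunits of the helicase that unwinds DNA at the fork. MCM2 was at 2.998, 4.68 and 5.06 CPM in CL-CM-EE-IVF, at 3.39, 8.21 and 3.41 CPM in CL-CM-EE-AI, at 2.68, 4.43 and 2.89 CPM in CL-CM-EE and at 3.92, 3.404 and 2.06 CPM in CL-NC, in R5, R4 and R2 of each group, with its peak again in CL-CM-EE-AI R4 and all 4 groups overlapping. MCM4 was at 3.85, 4.64 and 5.22 CPM in CL-CM-EE-IVF, at 3.77, 5.15 and 2.87 CPM in CL-CM-EE-AI, at 3.295, 6.06 and 3.44 CPM in CL-CM-EE and at 3.19, 2.94 and 2.41 CPM in CL-NC, in the same order of libraries. Each CL-CM-EE-IVF library and each CL-CM-EE library lay above the highest CL-NC library in MCM4, while CL-CM-EE-AI overlapped CL-NC. MCM4 had the lowest p of all members in CL-CM-EE against CL-NC, with a log2 fold change of 0.58 (interval -0.21 to 1.37, unadjusted p 0.137 in edgeR).

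RRM2, the regulated subunit of the ribonucleotide reductase that supplies DNA precursors, was at 2.06, 3.11 and 5.14 CPM in CL-CM-EE-IVF, at 3.44, 10.5 and 3.36 CPM in CL-CM-EE-AI, at 3.91, 8.98 and 4.43 CPM in CL-CM-EE and at 3.399, 5.43 and 3.46 CPM in CL-NC, in R5, R4 and R2 of each group. CL-CM-EE-AI R4 and CL-CM-EE R4 were the highest libraries and CL-CM-EE-IVF R5 the lowest, and the groups overlapped. RRM2 had the lowest p of all members in CL-CM-EE-IVF against CL-CM-EE-AI, with a log2 fold change of -0.75 (interval -1.90 to 0.40, unadjusted p 0.184 in edgeR), which came to 0.02 without CL-CM-EE-AI R4.

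Of the other replication genes, MCM6 passed between R numbers. It was at 5.799 to 9.26 CPM in R5, 7.73 to 13.1 CPM in R4 and 13.1 to 17.8 CPM in R2, so each R2 library lay above the other 8, but the lowest R2 library (13.084 CPM) lay next to the highest R4 library (13.077 CPM). Its log2 fold change in R5 against R2 was -0.84 ± 0.23 (SE, adjusted p 0.0208 in edgeR). The F test of MCM6 passed in 8 of 12 fits that left out 1 library (adjusted p 0.0190 to 0.0869), and was lost without CL-CM-EE-IVF R5, CL-CM-EE-IVF R4, CL-CM-EE-IVF R2 or CL-CM-EE-AI R5. MCM5, a further helicase subunit, was also lower in R5 than in R2, by a log2 fold change of -1.14 ± 0.33 (adjusted p 0.0265 in edgeR, up to 0.0752 with 1 library left out), at 1.31 to 3.24 CPM in R5 and 3.14 to 5.93 CPM in R2. MCM3 and MCM7 of the same helicase, CDC6, which loads it, TYMS, which makes thymidylate, and RRM1, the large reductase subunit, did not pass. The largest range over the 12 libraries among these 5 was 2.79-fold, for MCM3, and the smallest 1.80-fold, for MCM7.

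Of the 13 mitosis genes, 6 had their lowest mean in R4 (MKI67, CDK1, BUB1, BUB1B, CCNA2 and CCNB2), 4 in R5 (TOP2A, CCNB1, AURKB and BIRC5) and 3 in R2 (AURKA, PLK1 and CDC20). Their summed level was 51.8 to 62.4 CPM in R5, 29.9 to 40.9 CPM in R4 and 58.2 to 68.1 CPM in R2, and MKI67 made up a large part of it. MKI67, which coats mitotic chromosomes and marks cycling cells, was at 26.1, 11.6 and 25.8 CPM in CL-CM-EE-IVF, at 27.9, 12.6 and 22.03 CPM in CL-CM-EE-AI, at 21.8, 12.01 and 21.3 CPM in CL-CM-EE and at 28.1, 7.04 and 23.2 CPM in CL-NC, in R5, R4 and R2 of each group. All 4 R4 libraries lay below the other 8, which was so for 1.52% of all genes, and the groups overlapped throughout. MKI67 was higher in R5 than in R4 by a log2 fold change of 1.28 ± 0.20 and lower in R4 than in R2 by one of -1.11 ± 0.20 (SE, adjusted p 0.00157 and 0.00292 in edgeR). Its group means were 21.2 ± 8.28 CPM in CL-CM-EE-IVF, 20.9 ± 7.71 CPM in CL-CM-EE-AI, 18.4 ± 5.51 CPM in CL-CM-EE, with 19.5 ± 11.04 CPM for CL-NC (SD, n = 3 each).

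TOP2A, the topoisomerase that untangles replicated chromosomes, was at 4.33, 3.75 and 12.7 CPM in CL-CM-EE-IVF, at 5.11, 7.93 and 9.11 CPM in CL-CM-EE-AI, at 4.61, 6.68 and 10.4 CPM in CL-CM-EE and at 5.39, 2.21 and 11.6 CPM in CL-NC, in R5, R4 and R2 of each group. The 4 R2 libraries lay above the other 8 (4.78% of all genes did so), and R5 and R4 overlapped. TOP2A was lower in R5 than in R2 by a log2 fold change of -1.19 ± 0.33 and lower in R4 than in R2 by one of -1.18 ± 0.33 (SE, adjusted p 0.0222 and 0.0353 in edgeR). In the F test, TOP2A missed the threshold without CL-CM-EE-IVF R2 (adjusted p 0.0879) or CL-NC R2 (adjusted p 0.0533), and with 1 library left out its contrasts of R5 and of R4 with R2 were lost in 4 and 7 of 12 fits.

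CDK1, the kinase that starts mitosis, was at 2.48, 2.18 and 3.44 CPM in CL-CM-EE-IVF, at 2.004, 2.38 and 4.49 CPM in CL-CM-EE-AI, at 2.37, 1.74 and 4.28 CPM in CL-CM-EE and at 3.09, 1.33 and 4.26 CPM in CL-NC, in R5, R4 and R2 of each group. Here too each R2 library lay above the other 8, and the lowest library was CL-NC R4. CDK1 was lower in R4 than in R2 by a log2 fold change of -1.11 ± 0.31 (SE, adjusted p 0.0334 in edgeR), but it passed the F test in 3 of 12 fits that left out 1 library, with adjusted p from 0.0227 to 0.0992. BUB1, a spindle checkpoint kinase, was at 1.31 to 3.43 CPM in R5, 0.276 to 1.699 CPM in R4 and 2.64 to 4.72 CPM in R2 and passed in 5 of those 12 fits (0.0213 to 0.102). Its log2 fold change in R4 against R2 was -1.76 ± 0.47 (adjusted p 0.0277 in edgeR). Without CL-NC R4, TOP2A, CDK1 and BUB1 no longer passed in R4 against R2, at log2 fold changes of -0.84, -0.91 and -1.36, and MKI67 still did, at -0.91.

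The B-type cyclins bind CDK1 at the entry to mitosis. CCNB1 was at 1.46, 1.33 and 1.87 CPM in CL-CM-EE-IVF, at 0.907, 1.36 and 1.84 CPM in CL-CM-EE-AI, at 1.32, 1.96 and 1.84 CPM in CL-CM-EE and at 1.05, 0.598 and 2.61 CPM in CL-NC, in R5, R4 and R2 of each group, with 13 to 52 counts per library. Its highest and lowest libraries, CL-NC R2 and CL-NC R4, were of the same group, and no pair of groups separated. CCNB2 was at 2.78, 2.26 and 3.101 CPM in CL-CM-EE-IVF, at 1.72, 0.623 and 3.903 CPM in CL-CM-EE-AI, at 3.73, 3.65 and 6.08 CPM in CL-CM-EE and at 3.82, 2.25 and 3.36 CPM in CL-NC, in R5, R4 and R2 of each group. The low value of CL-CM-EE-AI R4 rests on 11 counts. CCNB2 had the lowest p of all members in CL-CM-EE-AI against CL-CM-EE, with a log2 fold change of -1.10 (interval -2.27 to 0.07, unadjusted p 0.0640 in edgeR).

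BIRC5, or survivin, a part of the complex that corrects chromosome attachment, had 5 to 34 counts per library. It was at 1.11, 1.37 and 0.977 CPM in CL-CM-EE-IVF, at 0.716, 1.81 and 1.08 CPM in CL-CM-EE-AI, at 0.351, 1.01 and 1.49 CPM in CL-CM-EE and at 0.6798, 0.22998 and 0.502 CPM in CL-NC, in R5, R4 and R2 of each group. All 3 CL-CM-EE-IVF libraries and all 3 CL-CM-EE-AI libraries lay above the highest CL-NC library, while CL-CM-EE overlapped CL-NC. BIRC5 averaged 1.15 ± 0.20 CPM in CL-CM-EE-IVF, 1.201 ± 0.56 CPM in CL-CM-EE-AI, 0.952 ± 0.57 CPM in CL-CM-EE, with 0.470 ± 0.23 CPM for CL-NC (SD, n = 3 each). It had the lowest p of all members in both comparisons of embryo medium with CL-NC, with a log2 fold change of 1.29 for CL-CM-EE-IVF (interval -0.18 to 2.76, unadjusted p 0.0799 in edgeR) and 1.34 for CL-CM-EE-AI (interval -0.13 to 2.82, unadjusted p 0.0705). Neither passed once adjusted over all genes.

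The other mitosis genes did not pass between groups or in the F test between R numbers. They were CCNA2, a cyclin of S phase and mitotic entry, the mitotic kinases AURKA, AURKB and PLK1, the checkpoint protein BUB1B and CDC20, an activator of the anaphase-promoting complex. Their ranges over the 12 libraries were wide, from 2.62-fold for AURKA to 5.80-fold for AURKB, and AURKB, CDC20 and CCNA2 had as few as 8, 9 and 10 counts in a library. PLK1 was at 3.51, 4.40 and 4.08 CPM in CL-CM-EE-IVF and 2.28, 3.42 and 3.09 CPM in CL-CM-EE, which did not overlap.

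Among the G1 and S genes the D-type cyclins moved apart. CCND3, which with CDK4 or CDK6 phosphorylates RB1, was at 34.5, 48.4 and 16.7 CPM in CL-CM-EE-IVF, at 38.5, 72.5 and 18.4 CPM in CL-CM-EE-AI, at 30.9, 40.8 and 19.5 CPM in CL-CM-EE and at 36.4, 48.8 and 19.96 CPM in CL-NC, in R5, R4 and R2 of each group. Each R4 library lay above the other 8 (4.12% of all genes) and each R2 library below the other 8 (5.02% of all genes). CCND3 was lower in R5 than in R4 by a log2 fold change of -0.57 ± 0.16 (adjusted p 0.0362), higher in R5 than in R2 by 0.90 ± 0.16 (adjusted p 0.00212) and higher in R4 than in R2 by 1.47 ± 0.17 (SE, adjusted p 0.000165 in edgeR). With 1 library left out, the contrast of CCND3 between R5 and R4 was lost in 7 of 12 fits (adjusted p 0.0228 to 0.142). CCND2 was at 3.08, 5.61 and 6.71 CPM in CL-CM-EE-IVF, at 4.39, 5.66 and 5.92 CPM in CL-CM-EE-AI, at 4.13, 8.19 and 8.96 CPM in CL-CM-EE and at 3.92, 6.99 and 6.72 CPM in CL-NC, in R5, R4 and R2 of each group, and its 4 R5 libraries lay below the other 8 (5.76% of all genes). CCND2 was lower in R5 than in R4 by a log2 fold change of -0.76 ± 0.22 and lower in R5 than in R2 by one of -0.86 ± 0.22 (SE, adjusted p 0.0354 and 0.0139 in edgeR). With 1 library left out, these calls of CCND2 were lost in 8 and 2 of 12 fits (adjusted p up to 0.113 and 0.0591), and the first also without all R2 libraries (adjusted p 0.0525). Its F test was lost without CL-CM-EE-IVF R5 (adjusted p 0.0885) or CL-CM-EE-IVF R2 (adjusted p 0.0516). The contrast of R5 with R2 thus had opposite signs in these 2 D-type cyclins.

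CDK6, a partner kinase of the D-type cyclins, was at 46.9, 63.7 and 54.7 CPM in CL-CM-EE-IVF, at 43.4, 66.3 and 49.2 CPM in CL-CM-EE-AI, at 47.8, 108 and 62.8 CPM in CL-CM-EE and at 65.3, 120.2 and 46.996 CPM in CL-NC, in R5, R4 and R2 of each group. CL-CM-EE R4 and CL-NC R4 were the high libraries, and without either of them the F test of CDK6 missed the threshold (adjusted p 0.0715 and 0.0561 in edgeR). CDK6 was lower in R5 than in R4 by a log2 fold change of -0.79 ± 0.19 and higher in R4 than in R2 by 0.69 ± 0.19 (SE, adjusted p 0.0167 and 0.0307 in edgeR), the last lost under DESeq2's size factors (adjusted p 0.0610) and in 9 of 12 fits that left out 1 library (up to 0.184). CCNE1, a cyclin that activates CDK2, was at 2.398, 5.37 and 3.48 CPM in CL-CM-EE-IVF, at 2.15, 10.6 and 4.98 CPM in CL-CM-EE-AI, at 2.64, 8.08 and 8.27 CPM in CL-CM-EE and at 3.87, 5.15 and 4.76 CPM in CL-NC, in R5, R4 and R2 of each group, with the 4 R5 libraries at 2.15 to 3.87 CPM. It was lower in R5 than in R4 by a log2 fold change of -1.36 ± 0.32 (SE, adjusted p 0.0141 in edgeR). Its F test was lost without CL-CM-EE-AI R5 or CL-CM-EE R5 (adjusted p 0.0916 and 0.0583).

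CCNE2, the paralogue of CCNE1, showed no such pattern. It was at 4.03, 2.95 and 3.78 CPM in CL-CM-EE-IVF, at 3.96, 4.98 and 4.58 CPM in CL-CM-EE-AI, at 4.66, 5.56 and 5.68 CPM in CL-CM-EE and at 6.22, 5.43 and 3.91 CPM in CL-NC, in R5, R4 and R2 of each group, and each CL-CM-EE-IVF library lay below each CL-CM-EE library. CCNE2 averaged 3.58 ± 0.57 CPM in CL-CM-EE-IVF, 4.51 ± 0.51 CPM in CL-CM-EE-AI, 5.30 ± 0.56 CPM in CL-CM-EE, with 5.19 ± 1.17 CPM for CL-NC (SD, n = 3 each). It had the lowest p of all members in CL-CM-EE-IVF against CL-CM-EE, with a log2 fold change of -0.56 (interval -1.22 to 0.10, unadjusted p 0.0889 in edgeR). More widely, 8 of the 9 G1 and S genes had a log2 fold change below 0 in CL-CM-EE-IVF against CL-NC, with a median of -0.20, and 8 of 9 in CL-CM-EE-IVF against CL-CM-EE-AI, with a median of -0.33. All genes had medians of -0.04 and -0.07 there, with 10240 and 11775 of 18939 genes below 0, and none of the 9 passed. Both comparisons share the CL-CM-EE-IVF libraries. In the other comparisons, 5 to 7 of the 9 lay below 0. In CL-CM-EE-IVF against CL-NC, 8 of 11 replication genes, 7 of 13 mitosis genes and 2 of 3 inhibitors lay above 0. In CL-CM-EE-IVF against CL-CM-EE-AI these counts above 0 were 3, 7 and 1.

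The remaining G1 and S genes did not pass between groups or in the F test. CDK2, the partner of the E-type cyclins, kept within a range of 1.86-fold over the 12 libraries, and RB1, the pocket protein that binds E2F, within 1.69-fold. CDK4 spanned 2.76-fold with its peak in CL-CM-EE-AI R4. E2F1, a factor that switches on S-phase genes, spanned 8.54-fold on 7 to 49 counts per library.

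All 3 kinase inhibitors passed between R numbers, and they did not move as 1 block. CDKN1A, which p53 switches on, was at 22.9, 35.003 and 46.6 CPM in CL-CM-EE-IVF, at 18.8, 46.4 and 49.3 CPM in CL-CM-EE-AI, at 10.8, 57.6 and 76.1 CPM in CL-CM-EE and at 30.6, 37.8 and 58.1 CPM in CL-NC, in R5, R4 and R2 of each group. CDKN1B was at 8.61, 15.3 and 19.9 CPM in CL-CM-EE-IVF, at 9.02, 16.4 and 17.05 CPM in CL-CM-EE-AI, at 8.08, 11.9 and 23.8 CPM in CL-CM-EE and at 10.7, 11.1 and 14.7 CPM in CL-NC, in R5, R4 and R2 of each group. In both genes the 4 R5 libraries lay below the other 8, while R4 and R2 overlapped. CDKN1A was lower in R5 than in R4 by a log2 fold change of -1.09 ± 0.29 and lower in R5 than in R2 by one of -1.46 ± 0.29 (SE, adjusted p 0.0273 and 0.00391 in edgeR), and the contrast with R4 was lost in 3 of 12 fits that left out 1 library (adjusted p up to 0.1025). CDKN1B was lower in R5 than in R2 by a log2 fold change of -1.04 ± 0.21 (SE, adjusted p 0.00450 in edgeR), and its contrast of R5 with R4 did not pass (-0.57 ± 0.21, adjusted p 0.0957).

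CDKN1C, the inhibitor expressed from the maternal copy in mice and humans, stood out in R4. It was at 7.11, 34.3 and 5.61 CPM in CL-CM-EE-IVF, at 8.83, 52.3 and 8.66 CPM in CL-CM-EE-AI, at 7.42, 46.4 and 11.9 CPM in CL-CM-EE and at 9.203, 14.1 and 6.72 CPM in CL-NC, in R5, R4 and R2 of each group. All 4 R4 libraries lay above the other 8, which had at most 11.9 CPM. The 3 R4 libraries given conditioned medium lay at 34.3 CPM or more, where CL-NC R4 had 14.1 CPM. Those 3 libraries also exceeded CL-NC R4 in summed luteal markers (2634 to 5477 against 1478 CPM) and epithelial markers (54.7 to 111 against 19.6 CPM). In summed endothelial markers they lay below it (706 to 1009 against 1041 CPM). Whether cell composition had a part in the CDKN1C gap within R4 was not tested. CDKN1C was lower in R5 than in R4 by a log2 fold change of -2.06 ± 0.31 and higher in R4 than in R2 by 2.12 ± 0.31 (SE, adjusted p 0.00136 and 0.000812 in edgeR). Its group means were 15.7 ± 16.2 CPM in CL-CM-EE-IVF, 23.2 ± 25.1 CPM in CL-CM-EE-AI, 21.9 ± 21.3 CPM in CL-CM-EE, with 9.9997 ± 3.74 CPM for CL-NC (SD, n = 3 each), so the spread within each medium was about as large as its mean. The log2 fold change against CL-NC was 0.65 for CL-CM-EE-IVF (interval -1.25 to 2.55), 1.21 for CL-CM-EE-AI (interval -0.70 to 3.13) and 1.13 for CL-CM-EE (interval -0.79 to 3.04).

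**Figure D4:**
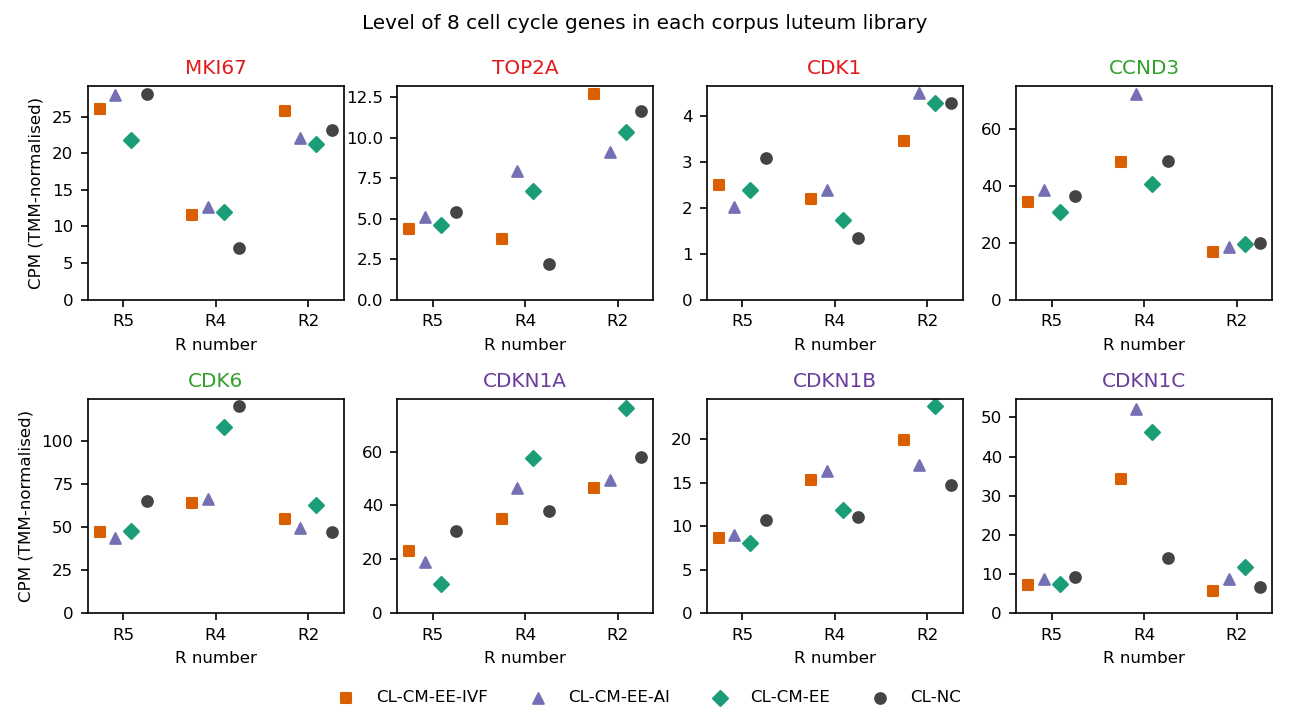
Level of 8 cell cycle genes in each corpus luteum library, in TMM-normalised CPM from 0, by R number and group (1 point a library). MKI67 is lowest in R4, TOP2A and CDK1 are highest in R2, CDKN1A and CDKN1B are lowest in R5, and CDKN1C is highest in R4, where CL-NC lies at 14.1 CPM below the 3 conditioned medium libraries.

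Within an R number each conditioned medium library could be set beside the CL-NC library of the same number, with 1 library on either side and hence no test inside an R number. In R4, the 3 media libraries averaged 3.15 times the CL-NC library in CDKN1C, 5.07 times in BUB1, 2.77 times in TOP2A and 1.72 times in MKI67. In R5 these ratios were 0.846, 2.00, 0.869 and 0.898, and in R2 they were 1.30, 0.915, 0.920 and 0.992. The R4 ratio of BUB1 rests on 6 counts in CL-NC R4. BIRC5, E2F1 and CCNB1 also had high R4 ratios, of 6.08, 4.97 and 2.60, on 5, 7 and 13 counts in that library. Other members had R4 ratios below 1, among them AURKA at 0.505, CDK6 at 0.660 and RB1 at 0.730. The R4 media libraries also differed from CL-NC R4 in cell markers, as given for CDKN1C, and the part of this in the ratios was not tested. Of the 36 members, all 3 media libraries lay above CL-NC in 16 for R4 (29.6% of all genes), 3 for R5 (25.9%) and 9 for R2 (26%). They lay below CL-NC in 5 for R4 (29%), 19 for R5 (29%) and 5 for R2 (26.1%). The R4 and R5 counts were the same with DESeq2's size factors. The members with all 3 above in R4 and all 3 below in R5 were MKI67, TOP2A, PCNA, MCM2, CDK1, CDK4, CCNE1, CDKN1B and CDKN1C. The share of all genes with both was not counted, so these names do not show that the members differ from other genes. Both orders also turn on 1 CL-NC library in each R number. In the wider lists described further on, 12 of 48 other replication genes had all 3 above in R4 and 16 all 3 below. In R5 these counts were 18 and 14. For 68 other mitosis genes they were 26 and 13 in R4, and 20 and 18 in R5. For 38 other regulators they were 14 and 10 in R4, and 9 and 10 in R5.

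A test of whether the difference between the media and CL-NC itself differed between R numbers, added after the CDKN1C values were seen, called 0 members and 2 of all genes (0.0106%) in edgeR. At an unadjusted p under 0.05 stood 4 members, TOP2A, BUB1, E2F1 and CDKN1C (11.1%), and 6.39% of all genes, and CDKN1C had the lowest p at 0.0122 (adjusted p 0.718). Of the 2 genes called, 1 belongs to the mitotic machinery. NCAPH, a subunit of the condensin complex that compacts mitotic chromosomes, was at 3.38, 4.12 and 4.93 CPM in CL-CM-EE-IVF, at 3.67, 3.001 and 5.697 CPM in CL-CM-EE-AI, at 2.81, 5.05 and 5.48 CPM in CL-CM-EE and at 4.602, 149 and 3.71 CPM in CL-NC, in R5, R4 and R2 of each group. It had 3244 counts in CL-NC R4 and 53 to 127 counts in the other 11 libraries, so its level in CL-NC rests on 1 library. The other gene, LOC100124497, had 1861 counts in CL-NC R5 and 187 to 298 counts elsewhere.

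CL-NC R4 was also the lowest of the 12 libraries for 8 of the 36 members (22.2%, against 9.76% of all genes): MKI67, TOP2A, CDK1, CCNB1, BUB1, BIRC5, CDK4 and E2F1. CL-CM-EE-AI R4 was the highest for 10 (27.8%, against 17.9% of all genes), among them PCNA, MCM2, MCM3, RRM2, CDK4, CCND3, CCNE1 and CDKN1C. That library also had the highest summed luteal markers, 5477 CPM, and epithelial markers, 111 CPM. CL-CM-EE R2 was the highest for 8 (22.2%, against 12.2% of all genes), among them MCM5, MCM6, MCM7, CCND2, CDKN1A and CDKN1B, and for 0 members was it the lowest. The part of cell composition in these orders was not tested.

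Wider lists of cell cycle genes were read in the same fits. Between groups, 0 of 48 other replication genes, 0 of 68 other mitosis genes and 0 of 38 other regulators passed in any comparison. Between R numbers, 13 (27.1%), 21 (30.9%) and 11 (28.9%) passed the F test, against 26.7% of all genes. In R5 against R2, 10 other replication genes were higher (20.8%) and 2 lower (4.17%), and 3 other mitosis genes were higher (4.41%) and 11 lower (16.2%), where 11.5% of all genes were higher and 9.26% lower. In R4 against R2, the mitosis list had 2 higher (2.94%) and 10 lower (14.7%), where 8.72% of all genes were higher and 4.93% lower. The medians of the mitosis list were -0.37 in both contrasts, where all genes had 0.08 and 0.04.

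Of the replication list, DNMT1, which copies DNA methylation, was at 36.9 to 44.9 CPM in R5, 17.4 to 25.2 CPM in R4 and 14.1 to 30.8 CPM in R2, and POLA1, the catalytic subunit of the polymerase that primes synthesis, at 41.03 to 47.1, 28.6 to 33.6 and 21.4 to 29.1 CPM. Both were highest in R5, with adjusted p of 0.000981 and 0.00265 in the edgeR F test. Of the mitosis list, SMC4, a condensin core subunit, was at 37.96 to 51.9 CPM in R5, 44.3 to 60.6 CPM in R4 and 82.5 to 124 CPM in R2 (adjusted p 0.00126), while CEP55, which acts in the last step of cell separation, was at 12.04 to 17.5, 7.58 to 17.6 and 4.41 to 9.01 CPM (adjusted p 0.00139). Among the regulators, BTG1, an antiproliferative gene, was at 23.8 to 34.9 CPM in R5, 45.6 to 91.8 CPM in R4 and 103 to 158 CPM in R2 (adjusted p 0.000240). MNAT1, a subunit of the kinase complex that activates CDKs, was at 28.2 to 32.1, 35.3 to 51.5 and 64.4 to 93.3 CPM (adjusted p 0.000485). BTG1 thus had the same order of R numbers as MNAT1, with R5 lowest as in CDKN1A and CDKN1B.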

How the data were processed

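RNA counts of 12 corpus luteum libraries were analysed. The authors deposited whole read counts per gene in 1 table, with no fractional or expected counts in any of its columns. Per the submitters' processing notes, the tools were cutadapt, Trim Galore, STAR, DESeq2 and featureCounts. The sources used here give no version, genome build or strand setting. Without a stated strand, reads of overlapping genes cannot be told apart, which concerns 11 members (MCM7, CDK1, CDK6, CCNA2, CCNB2, CCNE2, PLK1, BUB1B, TYMS, RRM1 and RB1). The labels list 20 corpus luteum samples, with 2 titles for each R4 and R5 library, while the table has 12 columns. Each column was used as 1 library. The 9 endometrial samples were not analysed.

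Genes were kept with filterByExpr, scaled by TMM and tested with edgeR 4.0.16 (limma 3.58.1, R 4.3.3) by quasi-likelihood F tests, with Benjamini-Hochberg adjustment over 18939 genes and a threshold of 0.05. The 6 group comparisons shared 1 model. R numbers were tested with the group as a covariate. Alternatives were DESeq2 1.42.0, its size factors, no filter, each library left out, the replicate block, and mitochondrial and ribosomal RNA rows left out. Each R number was also left out for the tests between R numbers, and only R2 for the tests between groups. The tests were also run on simulated counts, whose outcome is not given and is not used as support. Members and lists were chosen with earlier results of these data known. Per-library values are given for a fixed list of 11 members, of which CCND1 was not analysed here, for the member with the lowest p in each group comparison and for the 8 with the lowest p between R numbers. Of each wider list, the 2 genes with the lowest p between R numbers are named. NCAPH, LOC100124497 and MYO15B, and other members named for a range or a rank, were chosen after their values were seen. A planned motif search was not run because no promoter sequences were at hand. Figures were drawn with Python 3.11.15 and matplotlib 3.10.9.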

Additional observations from a re-analysis of the deposited data

Results flagged for a closer look

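Among the 4 libraries of each R number, 1 library stood far from the other 3 in 4 of 108 sets of values examined, where chance gives about 1 in 20 sets (5.4 here). CCNB1 in CL-NC R2 was at 2.61 CPM, and the other 3 R2 libraries lay at 1.84 to 1.87 CPM. E2F1 in CL-CM-EE-AI R5 was at 2.00 CPM, beside 1.11 to 1.23 CPM in the other R5 libraries. MCM6 in CL-CM-EE R2 was at 17.8 CPM, beside 13.1 to 13.5 CPM. RB1 in the same library was at 85.7 CPM, beside 61.4 to 63.6 CPM.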

How the results depend on the processing

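Between groups, 0 members and 0 genes were called in each of the 6 comparisons under every alternative run, with ranges of 0 to 0 when single libraries were left out. Of the whole R numbers, only R2 was left out in these comparisons. In the test of any group difference, DESeq2 called 1 gene, MYO15B. In the fit with the R number as a replicate block, calls also stayed at 0 genes. It had 163 to 976 genes and 0 to 1 members at an unadjusted p under 0.05 in a comparison. Whether equal R numbers pair the samples is not stated. The deviations of libraries with the same R number correlated at 0.0813 to 0.662 (15 of 18 pairs over 0.1). Those of libraries with different R numbers correlated at -0.490 to 0.198 (6 of 36 pairs over 0.1). Of the 12 libraries, 12 correlated best with their own number.

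Between R numbers, the F test called 7 members and 2904 genes without R2, 7 members without R4, and 3 members and 1624 genes without R5, which also holds for R4 against R2. Leaving out single libraries, it called 8 to 12 members and 3374 to 5141 genes, the fewest genes without CL-CM-EE-AI R5. R5 against R4 called 3 to 8 members and 1214 to 2949 genes, R5 against R2 4 to 8 and 2441 to 4347, and R4 against R2 3 to 7 and 1391 to 2526. The log2 fold change of RRM2 in CL-CM-EE-IVF against CL-CM-EE-AI ranged from -1.16 to 0.0154 and was above 0 without CL-CM-EE-AI R4. The cause was not tested where the construction, fewer libraries, does not show it. DESeq2's size factors moved the median of all genes by -0.11 (log2) in R5 against R2. Genes with fewer than 20 counts in a library, such as BIRC5, E2F1 and AURKB, carry the widest counting error.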
